A study of Homo sapiens with 6 samples.

Results

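Genes of the lysosome were compared between SKBR3 cells depleted of NDRG1 and control cells. They were chosen by name as 40 acid hydrolases with their cofactors, lysosomal membrane proteins and enzyme delivery factors, cathepsins left out, together with every symbol beginning as those of the lysosomal proton pump (V-ATPase) do. Of these, 23 are among the 14812 genes whose symbol stands alone on a probe. They are 22 of the 40 listed by name and 1 of 49 symbols of the proton pump pattern. The measured hydrolases and luminal cofactors numbered 14 of 28, the membrane proteins 7 of 10 and the delivery factors 1 of 2. The 1 measured symbol of the pump pattern was ATP6V0E2-AS1, a noncoding RNA antisense to a subunit gene. None of the 24 protein-coding genes of that pattern has a probe carrying its symbol alone, so the proton pump itself was not analysed here. The listed genes not analysed here were the hydrolases and cofactors GUSB, NAGLU, IDUA, GAA, MANBA, MAN2B1, FUCA1, GLB1, GLA, SMPD1, LIPA, NPC2, ACP2 and ACP5, the membrane proteins SCARB2, NPC1 and CLN3, and GNPTAB, which takes part in tagging enzymes for delivery.

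SKBR3 is an established line of breast cancer cells that overexpress HER2. RNA was measured on 6 Affymetrix Gene ST arrays, 3 from cells carrying an shRNA against NDRG1 (shNDRG1) and 3 from cells carrying an shRNA against GFP (shGFP control), which the methods call a vector control. Both hairpins were delivered by lentivirus and the cells selected with puromycin, and 1 NDRG1 hairpin was used for the arrays. All 6 samples were cultured without the iron chelator deferoxamine, and the labels place 1 array of each group in each of 3 batches without saying what a batch is. The labels also carry a date, called the label day here, which batches 2 and 3 share and batch 1 does not. What was done on that date is not stated. The methods call the replicates independent biological samples. The deposited values are relative to a per-probe baseline and, since the sources do not state the base, were taken to be log2. By the methods this baseline is the control median, yet the control arrays had a median of 0 (tolerance 1e-05) in only 0.338% of 44629 probes and in 0 of the 23 genes. The median over all 6 arrays was 0 in 26.8% of probes and in 4 of the 23 genes. The arrays behind the 0 of each gene are thus not known, and only differences between arrays can be read. The values keep no expression level, so levels cannot be compared between genes and the markers of the cell line could not be checked. In bulk RNA, fewer cells of a type and less RNA per cell cannot be told apart.

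NDRG1, the target of the shRNA, read, in the order of batches 1, 2 and 3, -0.77, -0.74 and -1.09 with its own shRNA and 0.02, 0.42 and -0.02 in control cells. The 3 depleted arrays were thus below all 3 controls, by -1.01 on the log2 scale (standard error 0.16), yet the adjusted p over all genes was 0.652 from limma, and 0.289 with the batch as a block.

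Lysosomes are acidic organelles in which hydrolases break down glycans, lipids and proteins that arrive by endocytosis and autophagy. Most soluble hydrolases are carried there by mannose 6-phosphate receptors, some need activator proteins to reach their lipid substrates, and the limiting membrane holds heavily glycosylated proteins, channels and the proton pump that acidifies the lumen. Many lysosomal genes carry a CLEAR element, an extended E-box bound by TFEB and its relatives, near their start. Through its acid lipase and its sphingolipid hydrolases the organelle also takes part in the turnover of cellular lipids.

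From limma, 0 of the 23 lysosomal genes and 0 of all genes on the arrays passed the adjusted threshold of 0.05, a background of 0%. The differences were small. They ran from -0.22 for ARSB to 0.35 for NEU1, 9 of the 23 genes were within 0.1 of 0 and 19 within 0.2, and none reached 0.5 in size, which 0.736% of all genes did. More of them lay above the control than below it, 19 against 4, and the median was 0.11 against 0.01 for all genes, of which 7943 lay above and 6869 below. The median over the 23 was 0.04, 0.12 and 0.22 in batches 1, 2 and 3, whereas that of all genes was 0.001, 0.013 and 0.014. Leaving out single arrays or batches moved the median of the 23 between 0.072 (both arrays of batch 3 left out) and 0.166 (shNDRG1 array of batch 1 left out). The sialidase gene NEU1, the membrane protein gene LAMP1 and the protease gene TPP1 had the highest values, and the sulfatase gene ARSB the lowest.

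In all 3 batches 11 of the 23 genes lay above the control, against 17.1% of all genes, and 1 lay below it, against 12.5%. The other 11 turned sign between batches, as did 70.3% of all genes. Every shNDRG1 array lay above every control array for 3 genes, ARSA, PSAP and M6PR, and below for 1, ARSB, where the background was 5.14% and 3.21%. At an unadjusted p under 0.05, limma without a block gave 1 gene higher, PSAP, and 1 lower, ARSB, where 2.69% and 1.57% of all genes were so called, and leaving out single arrays or batches moved the first count between 0 and 4. The count over all genes, 399, also moved, though not always with it. The member count stayed at 1 without the control array of batch 1 (288 of all genes) or both arrays of batch 1 (323). The member count was 0 without the shNDRG1 array of batch 2 (251 of all genes), the shNDRG1 array of batch 3 (236), the control array of batch 3 (303) or both arrays of batch 3 (146). It was 3 without the shNDRG1 array of batch 1 (566 of all genes), and 4 without the control array of batch 2 (553) or both arrays of that batch (454). The single gene below was not called without both arrays of batch 1 or of batch 3, where 120 and 145 of all genes were called lower against 232. Once batch entered as a block, 5 genes lay higher (NEU1, ARSA, PSAP, TPP1 and LAMP1) and 1 lower (ARSB), against 5.7% and 3.74% of all genes. The median standard error of the 23 genes was 0.11 without the block and 0.07 with it. The smallest p that an exact permutation of 3 against 3 arrays can give is 0.1, and ARSB, ARSA, PSAP and M6PR reached it.

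**Figure D1:**
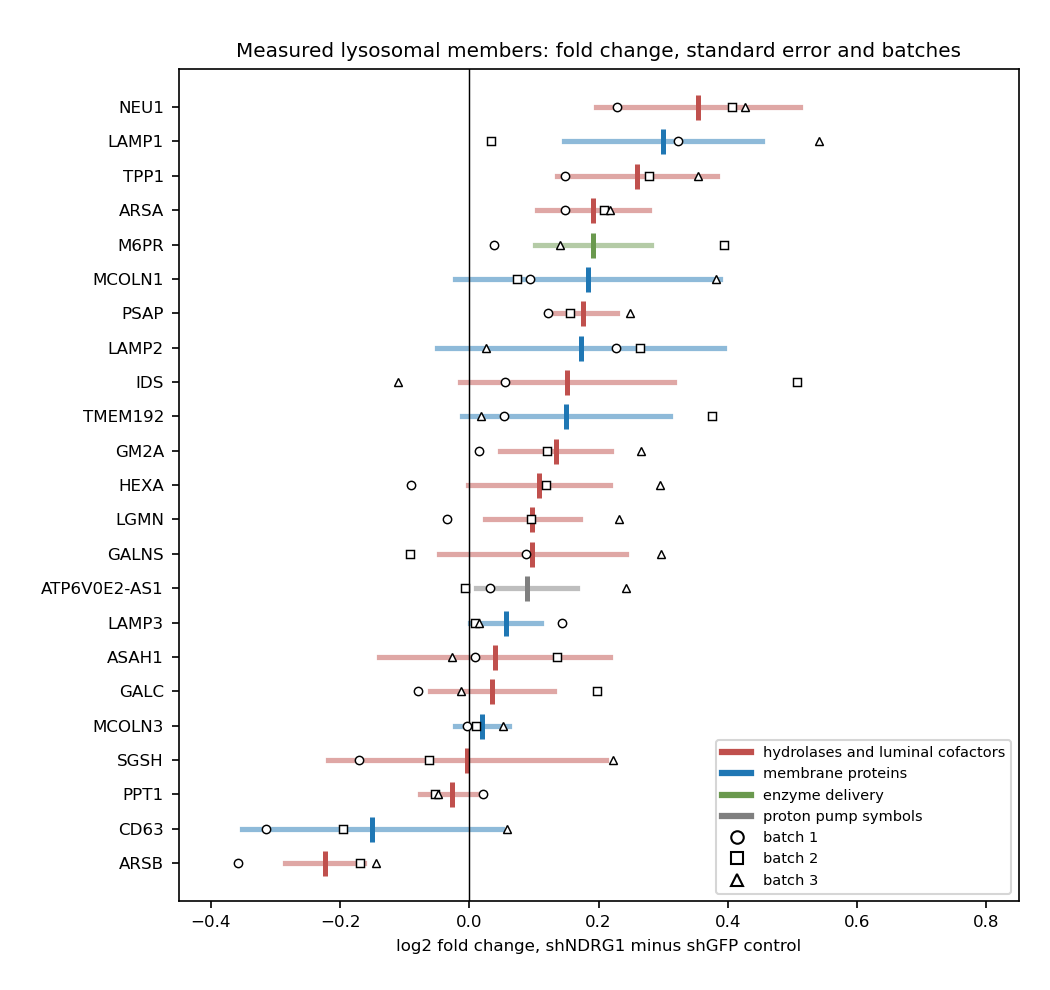
Log2 fold change (shNDRG1 minus shGFP control) of the 23 measured genes, with the standard error from limma as a horizontal bar and the difference within each batch as an open symbol, colours marking the gene classes. NEU1 at 0.35 and ARSB at -0.22 are the extremes, 19 genes lie above 0 and 4 below, and the batch symbols of 11 genes fall on both sides of 0.

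The promoters of 4 of these genes are shown because they hold the core of the CLEAR element, or a single E-box where the gene had the highest value of all. The runs are the 250 bases before the gene start used by RefSeq on GRCh38.p14, written 5′ to 3′ on the strand of the gene, and the capitals mark CACGTG, with the flanking bases also in capitals where the match is TCACGTGA. They lie at chr13:113296989-113297238 (plus strand, LAMP1), chr19:7522374-7522623 (plus strand, MCOLN1), chr16:88856948-88857197 (minus strand, GALNS) and chr6:31862822-31863071 (minus strand, NEU1).
LAMP1: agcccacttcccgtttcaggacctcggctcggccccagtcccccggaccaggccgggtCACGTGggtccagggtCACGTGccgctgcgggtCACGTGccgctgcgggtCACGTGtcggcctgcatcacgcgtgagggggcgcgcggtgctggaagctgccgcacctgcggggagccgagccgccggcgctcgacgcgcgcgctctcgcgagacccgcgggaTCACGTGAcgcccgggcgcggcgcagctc
MCOLN1: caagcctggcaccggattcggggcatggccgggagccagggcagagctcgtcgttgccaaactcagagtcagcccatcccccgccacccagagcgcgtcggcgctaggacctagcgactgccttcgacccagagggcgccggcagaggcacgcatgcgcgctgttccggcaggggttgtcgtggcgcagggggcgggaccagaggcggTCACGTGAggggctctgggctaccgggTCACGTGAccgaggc
GALNS: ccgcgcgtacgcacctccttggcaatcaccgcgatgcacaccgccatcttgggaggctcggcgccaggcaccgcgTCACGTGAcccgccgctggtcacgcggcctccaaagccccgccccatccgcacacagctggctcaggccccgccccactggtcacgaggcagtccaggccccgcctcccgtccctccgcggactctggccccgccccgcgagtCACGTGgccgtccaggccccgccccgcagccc
NEU1: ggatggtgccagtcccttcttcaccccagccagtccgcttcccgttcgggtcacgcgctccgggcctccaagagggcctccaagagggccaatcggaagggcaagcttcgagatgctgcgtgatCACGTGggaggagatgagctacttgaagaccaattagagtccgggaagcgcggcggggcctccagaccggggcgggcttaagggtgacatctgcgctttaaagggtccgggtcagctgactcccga

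Windows of 300 bases, 250 before and 50 after the start, were searched for CACGTG and for TCACGTGA. Both read the same on either strand, and the second contains the first. A window was at hand for 15 of the 23 genes, and CACGTG was in 5 of them, LAMP1 with 6 copies, MCOLN1 and GALNS with 2 each, and NEU1 and CD63 with 1 each. Of the promoters of all genes measured here with an entry, 9.03% of 10736 held it, and of all 27305 promoters on record 7.43%. The longer TCACGTGA was in 3 of the 15, with 2 copies in LAMP1 and in MCOLN1 and 1 in GALNS, against 1.49% of the measured genes and 1.04% of all promoters. A wider list of lysosomal genes and CLEAR-binding factors, described below, held CACGTG in 11 of 43 windows and TCACGTGA in 6. Among genes of that list named below, IGF2R, at a log2 fold change of -0.43, held 3 copies of TCACGTGA. NAGPA, at 0.35, held 1. The sixth LAMP1 core spans the start and is not in the run printed above. The 5 genes with CACGTG had a median log2 fold change of 0.18, from -0.15 for CD63 to 0.35 for NEU1, with 4 above 0. The 10 without it had a median of 0.11, from -0.22 for ARSB to 0.26 for TPP1, with 8 above 0. The ranges overlapped, and the genes with the motif were not separated from those without. A match is a description of the letters and no sign that a factor bound there. No promoter entry was at hand for LAMP2, LAMP3, HEXA, ARSA, SGSH, ASAH1, PSAP and LGMN.

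**Figure D2:**
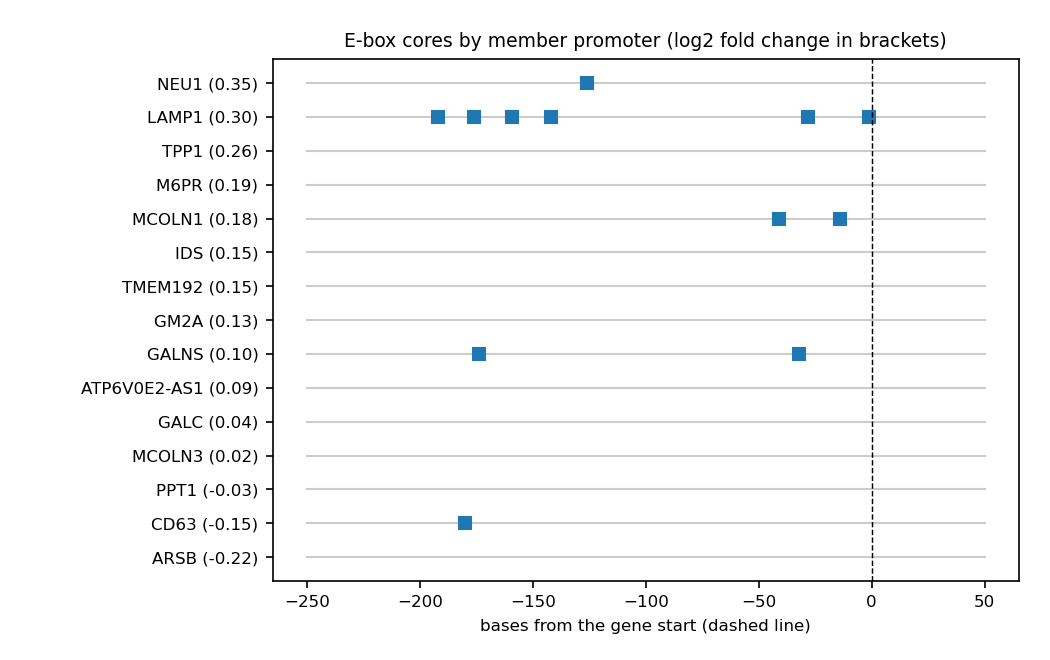
Position of each CACGTG core (squares) in the promoter windows of 15 genes, in bases from the gene start (dashed line), ordered by log2 fold change, which stands in brackets. LAMP1 holds 6 cores, MCOLN1 and GALNS 2 each, and NEU1 at 0.35 and CD63 at -0.15 1 each.

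Among the hydrolases, 11 of 14 lay above the control, with a median of 0.10, and batch medians of 0.02, 0.13 and 0.23. The median was 0.18 without the shNDRG1 array of batch 1 or both arrays of that batch, and 0.06 without both arrays of batch 3. Those of glycosaminoglycan breakdown, 4 of 7 measured, did not share a direction, with 2 above and 2 below and batch medians of -0.06, -0.08 and 0.06. ARSB, which removes sulfate from dermatan sulfate, was the only 1 of them whose batches agreed in sign. In the same batch order it read -0.04, -0.01 and 0.01 with the NDRG1 shRNA and 0.32, 0.16 and 0.15 in control cells, so the groups did not overlap. The log2 fold change of -0.22 (standard error 0.06) came with an adjusted p of 0.965 from limma (unadjusted 0.0123), and 0.442 with the batch as a block. The control array of batch 1 was the highest of the 6. IDS, which acts on dermatan and heparan sulfate, had 0.15 (standard error 0.17) and GALNS, a sulfatase of keratan and chondroitin sulfate, 0.10 (standard error 0.14). In IDS the batch differences were 0.06, 0.51 and -0.11, so batch 2 carried most of it. SGSH, which acts on heparan sulfate, differed by -0.0032. The 95% confidence interval without the block, -0.54 to 0.53, did not exclude a moderate difference in either direction. Its standard error was 0.22 without the block and 0.09 with it, and the batch differences were -0.17, -0.06 and 0.22.

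NEU1, the lysosomal sialidase, was the only measured gene of the glycogen and glycoprotein group of 6. Across the batches it read -0.05, 0.46 and 0.18 in depleted cells and -0.28, 0.05 and -0.25 in control cells. The control array of batch 2 lay above the shNDRG1 array of batch 1, so the groups overlapped, but shNDRG1 was the higher in each batch, by 0.23, 0.41 and 0.43. The log2 fold change was 0.35 (standard error 0.16, or 0.06 with the batch as a block), and NEU1 stood at rank 156 of 14812 from the top. Without the shNDRG1 array of batch 2 the log2 fold change was 0.22. The adjusted p from limma was 1 without the block and 0.327 with it, the unadjusted p being 0.0699 and 0.00403.

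The genes of sphingolipid breakdown, 6 of 8 measured, all lay above the control, with a median of 0.12, and batch medians of 0.01, 0.15 and 0.23. ARSA, the sulfatase of sulfatide, read 0.0001, 0.21 and 0.01 in shNDRG1 cells and -0.15, -0.0001 and -0.21 in control cells. All 3 shNDRG1 arrays lay above all control arrays, although the lowest of the first and the highest of the second nearly met. Its log2 fold change of 0.19 (standard error 0.09) had an adjusted p from limma of 1, and 0.406 with the block, and it was 0.12 without the shNDRG1 array of batch 2. PSAP, the precursor of the saposins that activate several sphingolipid hydrolases, read -0.02, 0.05 and 0.02 in shNDRG1 cells and -0.15, -0.10 and -0.22 in control cells. The groups did not overlap, and the log2 fold change was 0.18 (standard error 0.05, 95% confidence interval 0.04 to 0.31). The adjusted p from limma was 1, or 0.455 with the block, and the unadjusted p 0.0184 without it.

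The remaining 4 of these were GM2A, HEXA, ASAH1 and GALC. GM2A, the activator of ganglioside breakdown, was at 0.13 (standard error 0.09), and HEXA, a subunit of beta-hexosaminidase, at 0.11 (standard error 0.11). ASAH1, the acid ceramidase, was at 0.04 (standard error 0.18, or 0.06 with the block). GALC, the galactosylceramidase, was at 0.04 (standard error 0.10). GM2A lay above the control in each batch, by 0.02, 0.12 and 0.27, and was at 0.06 without the control array of batch 3 and at 0.07 without both arrays of that batch. HEXA, ASAH1 and GALC turned sign between batches, and batch 2 differed from the rest of the arrays for ASAH1, with -0.36 and -0.49 in shNDRG1 and control cells against values from -0.01 to 0.03 elsewhere.

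Of the proteases and the thioesterase, 3 of 5 measured with the acid phosphatases, TPP1 had the highest value. TPP1, a tripeptidyl peptidase, read -0.12, 0.13 and 0.30 in shNDRG1 cells and -0.27, -0.15 and -0.06 in control cells. Within each batch shNDRG1 was the higher, by 0.15, 0.28 and 0.35, while the shNDRG1 array of batch 1 lay among the controls. The log2 fold change of 0.26 (standard error 0.12) had an adjusted p from limma of 1, and 0.388 with the block, and it was 0.16 without the shNDRG1 array of batch 3. LGMN, an asparaginyl endopeptidase that processes cathepsins, was at 0.10 (standard error 0.07) with 1 batch below 0. PPT1, which removes palmitate from proteins, was at -0.03 (standard error 0.05), with a 95% confidence interval of -0.15 to 0.10.

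**Figure D3:**
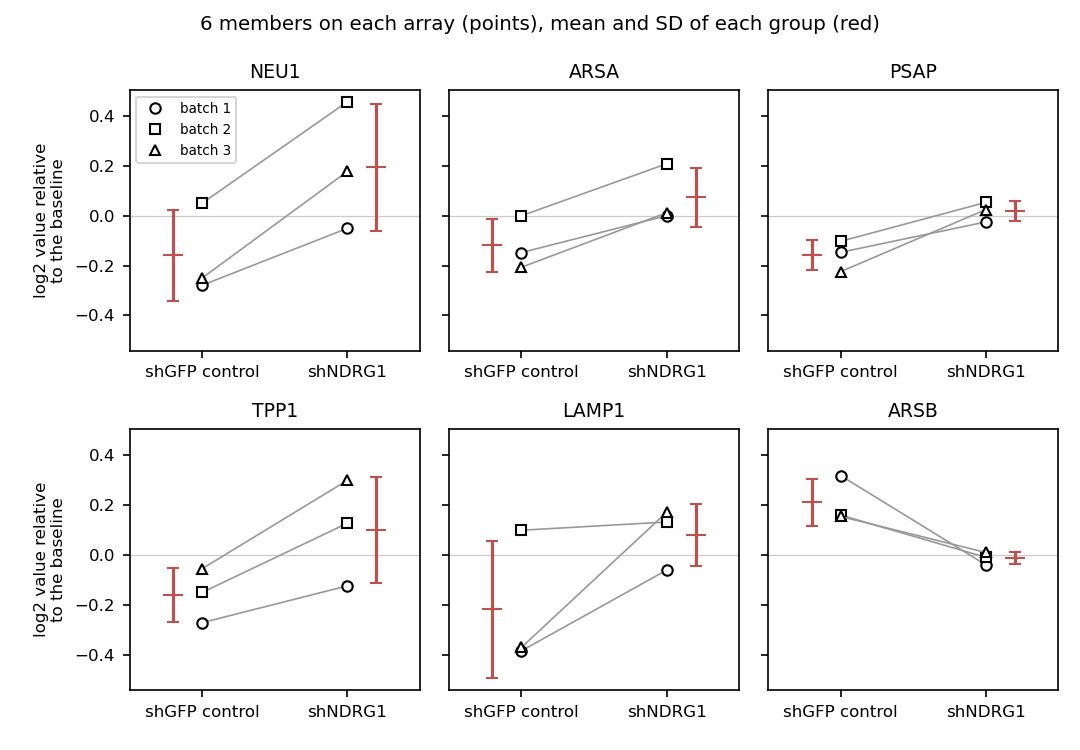
Values of 6 genes on each of the 6 arrays, in log2 units relative to the per-probe baseline, with arrays of the same batch joined by a line and the mean and SD (n = 3) of each group in red. NEU1, ARSA, PSAP, TPP1 and LAMP1 lie higher in shNDRG1 cells within each batch and ARSB lower, whereas only ARSA, PSAP and ARSB have groups that do not overlap.

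The lysosomal membrane genes, 7 of 10 measured, were above the control for 6 and below for 1, with a median of 0.15. The batch medians were 0.09, 0.03 and 0.05, each below the median of the fit, since each median is taken over its own order of the 7 genes. LAMP1, a main glycoprotein of the limiting membrane, read -0.06, 0.13 and 0.17 in shNDRG1 cells and -0.38, 0.10 and -0.37 in control cells. In batch 2 the arrays were nearly equal, a difference of 0.03, against 0.32 and 0.54 in batches 1 and 3. Its log2 fold change was 0.30 (standard error 0.15), with an adjusted p from limma of 1, or 0.526 with the block, and the log2 fold change was 0.46 without the control array of batch 2 and 0.18 without both arrays of batch 3.

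LAMP2, the partner glycoprotein with a part in chaperone-mediated autophagy, was at 0.17 (standard error 0.22, or 0.07 with the block). Its batch differences were 0.23, 0.26 and 0.03. Without the control array of batch 2 it was -0.03, as both arrays of that batch read far below the others, at -0.40 and -0.66. MCOLN1, the TRPML1 channel that releases lysosomal calcium, was at 0.18 (standard error 0.20, or 0.08 with the block). Its batch differences of 0.09, 0.07 and 0.38 shared a sign. TMEM192, a membrane protein often used to purify lysosomes, was at 0.15 (standard error 0.16, or 0.09 with the block). Most of it lay in batch 2, where the difference was 0.38. CD63, a tetraspanin of late endosomes, lysosomes and exosomes, was the 1 membrane gene below the control. It was at -0.15 (standard error 0.20, or 0.09 with the block), with -0.31, -0.20 and 0.06 in the batches. LAMP3 and the channel gene MCOLN3 differed by 0.06 (standard error 0.06) and 0.02 (standard error 0.04).

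M6PR, the cation-dependent receptor that carries hydrolases tagged with mannose 6-phosphate, was the delivery factor measured. It read 0.03, 0.13 and 0.145 in shNDRG1 cells and -0.0047, -0.27 and 0.0047 in control cells. All shNDRG1 arrays lay above the control arrays, but the difference was 0.04 in batch 1, 0.39 in batch 2 and 0.14 in batch 3. The log2 fold change of 0.19 (standard error 0.09) had an adjusted p from limma of 1 without the block and 0.615 with it. It was 0.10 without the control array of batch 2 and 0.09 without both arrays of that batch. IGF2R, the cation-independent receptor of the same route, was on a wider list of lysosomal genes and lay the other way. It read -0.42, -0.24 and -0.29 in shNDRG1 cells and 0.12, 0.23 and -0.01 in control cells, and the groups did not overlap. The log2 fold change was -0.43 (standard error 0.08), with an adjusted p from limma of 0.706, or 0.314 with the block. The difference between the 2 receptors was not tested.

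For the proton pump, ATP6V0E2-AS1 was at 0.09 (standard error 0.08), with 0.03, -0.01 and 0.24 in the batches. TCIRG1, a subunit gene with another symbol, has no probe carrying its symbol alone. On the wider list, 8 of 11 genes of a subunit or of pump assembly were measured, with 2 above and 6 below the control and a median of -0.10. The batch medians were 0.01, 0.02 and -0.17, so batch 3 alone lay below. The list does not record whether a gene promotes or opposes assembly, so the median is no measure of pump assembly. OXR1, whose product has a TLDc domain and whose 2 probes were averaged, was at -0.35 (standard error 0.25, or 0.06 with the block), and -0.28, -0.30 and -0.47 in the batches, with an adjusted p from limma of 1 and 0.327. Leaving out single arrays moved it between -0.55, without the control array of batch 2, and -0.18, without the shNDRG1 array of batch 2.

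The wider list held 86 further genes of the lysosome, of which 46 were measured. Of these, 29 lay above the control and 17 below, with a median of 0.04, which is closer to that of all genes than the 0.11 of the 23. At an unadjusted p under 0.05, limma gave 6 higher and 1 lower, and with the block 8 and 2, against the shares of all genes given above. The nutrient-sensing scaffold, which ties amino acid supply to mTORC1 on the lysosomal surface, had 5 of its 6 measured genes above the control, a median of 0.22 and batch medians of 0.26, 0.22 and 0.37. RRAGD, a Rag GTPase, read 0.07, 0.23 and 0.38 in shNDRG1 cells and -0.53, -0.84 and -0.17 in control cells. The groups did not overlap, and the log2 fold change of 0.74 (standard error 0.19) was the 10th from the top of 14812 genes, with an adjusted p from limma of 0.877, or 0.318 with the block. RRAGC, another Rag GTPase, was at 0.42 (standard error 0.12), and LAMTOR5, a subunit of the Ragulator complex that anchors them, at 0.28 (standard error 0.07). LAMTOR4, another subunit of that complex, was the 1 scaffold gene below the control. It was at -0.17 (standard error 0.08), with 0.02, -0.22 and -0.32 in the batches.

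Other genes of the wider list with an unadjusted p under 0.05 in either fit were mostly above the control. LAPTM4B, a lysosomal membrane protein, was at 0.42 (standard error 0.08, adjusted p from limma 0.706). NAGPA, which uncovers the mannose 6-phosphate tag, was at 0.35 (standard error 0.11), and HGSNAT, an acetyltransferase of heparan sulfate breakdown, at 0.23 (standard error 0.07). CD68, a membrane glycoprotein, was at 0.51 (standard error 0.25, or 0.11 with the block). TMEM106B, a lysosomal transmembrane protein, was at 0.31 (standard error 0.35, or 0.10 with the block). Both reached that p only with the block. Without the control array of batch 3 CD68 was at 0.32. In TMEM106B the group difference was smaller than the gap between batches, as both arrays of batch 2 read lowest, at -0.54 and -1.02.

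Of the 4 factors that bind the CLEAR element, 3 lay below the control and 1 above. TFEB read -0.11, -0.0027 and -0.32 in shNDRG1 cells and 0.06, 0.04 and 0.0027 in control cells, so that its groups did not overlap. Its log2 difference was -0.18 (standard error 0.09), with an adjusted p from limma of 1, and it was -0.09 without the shNDRG1 array of batch 3 and -0.10 without both arrays of that batch. TFE3 was at -0.13 (standard error 0.20), MITF at -0.05 (standard error 0.09) and TFEC at 0.04 (standard error 0.04), with every shNDRG1 array of TFEC above every control array.

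**Figure D4:**
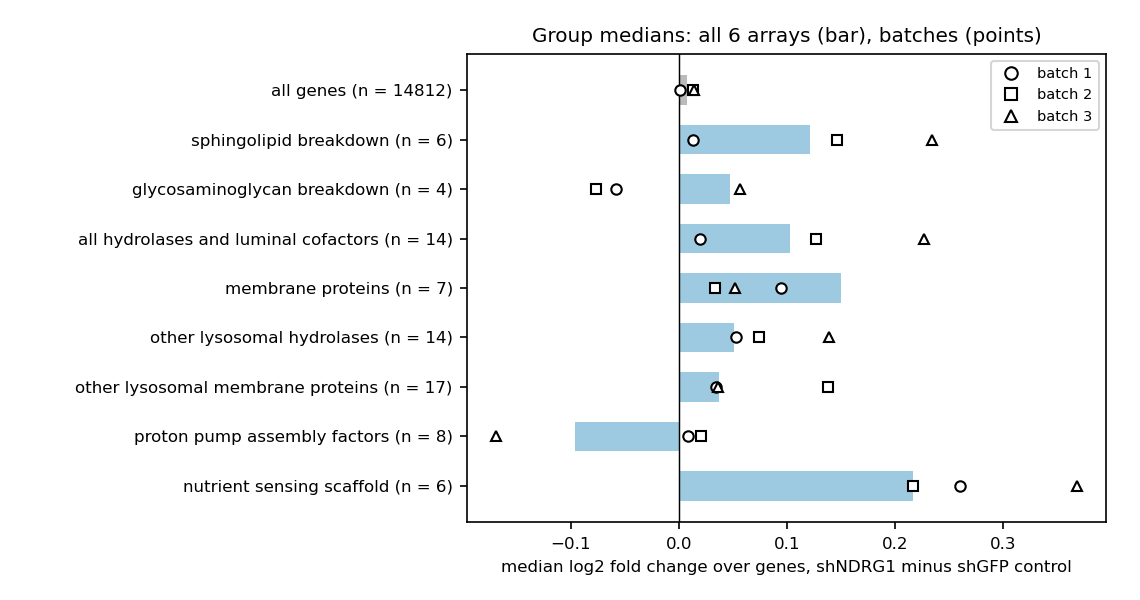
Median log2 fold change (shNDRG1 minus shGFP control) over the measured genes of each group, as a bar for the fit over 6 arrays and as open symbols for each batch. Sphingolipid breakdown at 0.12 and the membrane proteins at 0.15 lie above all genes at 0.01, glycosaminoglycan breakdown falls on both sides of 0 between batches, and the pump assembly factors at -0.10 lie below 0 in batch 3 only.

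The means of the 3 batches ranged wider than the group difference in 20 of the 23 genes and in 85% of all genes. The exceptions among the 23 were ARSB, PSAP and M6PR. A range over 3 batch means tends to exceed a difference of group means even without a batch effect. The count therefore does not measure such an effect. Both arrays of batch 2 lay below the other 4 for ASAH1, PPT1, LAMP2 and TMEM192, and above them for SGSH, LAMP3, CD63 and MCOLN1, against 18% and 21.7% of all genes. The part of the batch in the group differences was not tested beyond the fit with the block and the within-batch values.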

How the data were processed

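The authors summarised the probes with PLIER, quantile normalised them and transformed them to a baseline, stated as the median of the control samples, which the values do not bear out, with quality checks in Affymetrix Expression Console. The deposited values, 1 per probe and array, are read here as log2 values, since the base is not stated, and they keep no expression level. Of 44629 probes, 15835 carry 1 gene symbol and stand for 14812 genes, and the 23 genes described have 1 probe each. Probes with no symbol or with several were not used. Probes of the 651 genes with more than 1 probe were averaged, and no filter on dim probes was used. No pair of arrays shared over 54 identical values.

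The comparison used limma 3.58.1 under R 4.3.3 (lmFit and eBayes, 6 arrays, no covariate) with Benjamini-Hochberg adjustment over all genes and a threshold of 0.05. The labels give a batch number to 1 array of each group, so the numbers pair the arrays. Over all genes, paired arrays deviated from their group means together in batches 1 and 2, with correlations of 0.785 and 0.833. In batch 3 the correlation was only 0.163, and arrays of different batches were not compared in this way. The fit with the batch as a block stands beside the main values. The number of arrays limits the precision. The genes named are NDRG1, fixed anchors, members with an unadjusted p under 0.05 in either fit, the 6 with the smallest p in each direction whose batches agreed in sign, and genes of the wider list with such a p. TCIRG1 and the 4 CLEAR factors are named in any case, and the other members were named to account for each. LAMTOR4 was named after its values were seen. The members and lists were chosen with earlier results of these data known. On simulated arrays with added changes, the fit was required only to return their mean size. The changed genes that passed the adjusted threshold were also counted, but those counts are not reported here. Promoters came from RefSeq (GRCh38.p14). Alternatives were the block, the label day, other variance models, array weights, a further quantile normalisation, median centring, the probe of largest range, other thresholds and leaving out arrays.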

Additional observations from a re-analysis of the deposited data

How the results depend on the processing

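Across 18 alternatives no lysosomal gene of the 23 passed the adjusted threshold, the lowest adjusted p from limma being 0.101. Of all 14812 genes, 5 passed that threshold with array weights and none under the other refits. Of the 23, 13 kept their sign under each of the 16 alternatives that give a fold change. The count of genes higher at an unadjusted p under 0.05, which was 1, was 5 with the batch as a replicate block (845 of all 14812 genes, against 399), 3 with the label day as a block (470), 3 with a trended and robust variance (357), 10 with array weights (1753, with 1186 lower), 3 after a further quantile normalisation (416), 0 at a threshold of 0.01, and 0 to 4 when arrays were left out. The count of genes lower, which was 1, was 0 with a trended and robust variance (243 of all genes, against 232). It was 0 at a threshold of 0.01, and 0 to 1 when arrays were left out (120 to 471 of all genes). At 0.01 all genes were not counted in either direction. The median of the hydrolases, 0.103, was 0.174 with array weights and 0.064 to 0.184 when arrays were left out. The median of the membrane genes, 0.15, was 0.078 with array weights, 0.082 after a further quantile normalisation, and 0.015 to 0.196 when arrays were left out. With array weights SGSH was at 0.262, ASAH1 at -0.000456 and CD63 at 0.0242, and after a further quantile normalisation ASAH1 was at -0.0167. The causes were not tested.

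When single arrays or batches were left out, the log2 fold changes of 10 of the 23 genes and of 3 others crossed 0. The ranges ran for GALNS from -0.00196 to 0.21, IDS from -0.0273 to 0.299, SGSH from -0.122 to 0.199, GALC from -0.0459 to 0.115, and ASAH1 from -0.128 to 0.159. They ran for PPT1 from -0.0508 to 0.00237, LAMP2 from -0.0287 to 0.328, CD63 from -0.283 to 0.0139, MCOLN1 from -0.000477 to 0.353, and TMEM192 from -0.0244 to 0.237. Of the genes outside the 23, they ran for TMEM106B from -0.0144 to 0.549, TFE3 from -0.276 to 0.0321 and MITF from -0.143 to 0.00502.

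With the batch as a replicate block no gene of the 23 passed the adjusted threshold either, and 0 of all genes did. The number of arrays and the missing expression levels limit these results, since dim probes cannot be told from bright ones.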
